A study of Mus musculus with 60 samples.

Results

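The genes described here are 40 imprinted genes of the mouse and close neighbours of such genes, chosen by name. Each is a row of the deposited expression table whose symbol equals a name on the list, so they are 40 of the 24378 features listed. Of the 40, 37 had a mean of at least 1 RPKM in at least 1 group and were tested, while Slc22a18, Phlda2 and Airn did not reach that level. RPKM divides a gene's reads by the length of its transcript and by the library's reads, so levels of different genes can be compared. The tissue was embryonic brain from TH-GFP mice, in which a green fluorescent reporter of the tyrosine hydroxylase gene helped to find dopaminergic tissue during dissection, and all groups carried it. The groups were the ventral midbrain, dorsal midbrain, ventral forebrain, ventral hindbrain and alar plate at 4 daily stages running from E11.5 up to E14.5, with 3 libraries in each of the 20 groups and 60 in all. The ventral midbrain is where dopaminergic neurons are born, and per the labels it was cut to contain both its floor and basal plates. Whether replicates were different embryos is not stated, and p-values measure only how far these samples spread.

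An imprinted gene is expressed only or mainly from the copy inherited from the mother or only or mainly from the copy inherited from the father. The choice is set by DNA methylation laid down in the egg or sperm, and 1 control region often governs a whole cluster of neighbouring genes. Many imprinted genes act on growth, on the exit of progenitors from the cell cycle and on hypothalamic and other neuronal functions. The deposited values hold no information on the parental copies, so nothing below bears on the imprint itself. The 40 genes fell into 16 clusters by chromosome and position (mm10 build, GENCODE vM21). The Dlk1 cluster spans 109452823 to 109749460 on chromosome 12 and holds Dlk1, Meg3, Rtl1, Rian and Mirg. The Peg10 cluster lies at 3685680 to 5433022 on chromosome 6 with Calcr, Sgce, Peg10, Ppp1r9a and Asb4, and Mest with Copg2 lies at 30723547 to 30896794 on the same chromosome. On chromosome 7 are the Peg3 cluster (6671269 to 6967219, Zim1, Peg3 and Usp29), Ube3a with Snrpn (59228750 to 60140219), the Ndn cluster (62346569 to 62464510, Ndn, Magel2, Mkrn3 and Peg12) and the Igf2 cluster (142575529 to 143503150, with H19, Tssc4, Cdkn1c, Slc22a18 and Phlda2).

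The promoter windows below belong to members whose levels differed between regions or stages, and each runs from 250 bases before to 50 after a RefSeq gene start (GRCm38.p6, the assembly of mm10). Windows were found for 32 of the 40 members, 50 in all, and some of them overlap. The letters TGCCGC, the hexamer known to be bound by ZFP57, a zinc finger protein that keeps methylation at imprinting control regions, were searched on both strands. They were in 13 of the 50 windows (26%, in 12 genes), against 11.6% of 32851 windows of all genes. Among windows with at least as many CG pairs as the median member window, 40% of the 25 from members and 25.1% of 11378 from all genes held the hexamer. A match is only a description of the letters. Capitals mark TGCCGC or its reverse complement GCGGCA in the windows of Calcr (chr6:3763574-3763873, minus strand), Meg3 (chr12:109540746-109541045, plus), Mest (chr6:30737800-30738099, plus), Nnat (chr2:157559828-157560127, plus) and Plagl1 (chr10:13090582-13090881, plus).
Calcr: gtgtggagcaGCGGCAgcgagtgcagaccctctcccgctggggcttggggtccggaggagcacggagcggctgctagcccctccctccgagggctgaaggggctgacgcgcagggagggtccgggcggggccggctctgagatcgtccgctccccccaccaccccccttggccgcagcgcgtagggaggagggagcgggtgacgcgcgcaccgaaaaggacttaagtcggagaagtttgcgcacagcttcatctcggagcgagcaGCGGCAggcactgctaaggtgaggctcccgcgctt
Meg3: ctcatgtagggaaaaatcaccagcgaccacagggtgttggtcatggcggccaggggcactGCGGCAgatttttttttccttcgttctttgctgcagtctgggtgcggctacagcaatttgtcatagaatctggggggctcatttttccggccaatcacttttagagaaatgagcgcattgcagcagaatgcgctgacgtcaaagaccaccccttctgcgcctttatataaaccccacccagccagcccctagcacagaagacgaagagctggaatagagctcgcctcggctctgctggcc
Mest: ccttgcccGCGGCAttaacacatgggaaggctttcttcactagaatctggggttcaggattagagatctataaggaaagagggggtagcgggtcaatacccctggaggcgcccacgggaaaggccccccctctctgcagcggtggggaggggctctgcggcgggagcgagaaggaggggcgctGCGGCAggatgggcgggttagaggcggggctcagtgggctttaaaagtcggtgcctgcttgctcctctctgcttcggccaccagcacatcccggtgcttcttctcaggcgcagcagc
Nnat: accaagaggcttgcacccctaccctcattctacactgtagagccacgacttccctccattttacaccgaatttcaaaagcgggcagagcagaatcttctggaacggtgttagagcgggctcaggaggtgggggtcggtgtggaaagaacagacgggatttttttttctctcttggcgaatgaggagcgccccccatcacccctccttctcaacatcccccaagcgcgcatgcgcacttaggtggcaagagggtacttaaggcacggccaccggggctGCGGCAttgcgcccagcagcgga
Plagl1: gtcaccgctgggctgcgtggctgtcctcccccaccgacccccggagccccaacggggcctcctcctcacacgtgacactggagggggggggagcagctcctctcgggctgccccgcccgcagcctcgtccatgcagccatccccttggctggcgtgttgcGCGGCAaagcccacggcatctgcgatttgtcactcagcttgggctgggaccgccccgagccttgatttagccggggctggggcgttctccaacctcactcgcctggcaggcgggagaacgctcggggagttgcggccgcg

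Peg3 and Usp29 are read in opposite directions from starts 163 bases apart, and their windows share 263 bases. The window of Peg3 (chr7:6730370-6730669, minus strand) is shown because both genes appear in the comparisons below, and capitals mark the stretch between the starts. It holds no TGCCGC on either strand.
Peg3: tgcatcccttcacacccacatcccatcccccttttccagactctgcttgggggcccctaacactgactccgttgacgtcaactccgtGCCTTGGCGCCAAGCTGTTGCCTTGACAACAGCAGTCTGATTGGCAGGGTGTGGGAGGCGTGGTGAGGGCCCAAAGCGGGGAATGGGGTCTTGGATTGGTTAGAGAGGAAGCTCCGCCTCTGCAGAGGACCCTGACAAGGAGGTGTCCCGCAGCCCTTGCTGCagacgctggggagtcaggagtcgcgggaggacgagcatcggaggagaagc

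The noncoding RNAs of the Dlk1 cluster are hosts of microRNAs, and the deposited table measures the hosts. RefSeq places 14 hairpins within the span of Mirg, 3 within Rian, 1 within Meg3 and 7 within Rtl1, of which 6 are on the strand opposite Rtl1. Mature microRNAs from opposite Rtl1 (mmu-miR-127-3p and mmu-miR-136-5p) and from Mirg (mmu-miR-134-5p and mmu-miR-410-3p) are shown 5′ to 3′, with the seed (bases 2 to 8) in capitals. The 4 seeds differ from each other.
mmu-miR-127-3p: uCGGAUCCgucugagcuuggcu
mmu-miR-136-5p: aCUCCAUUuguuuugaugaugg
mmu-miR-134-5p: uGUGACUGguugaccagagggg
mmu-miR-410-3p: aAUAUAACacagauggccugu

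Libraries of E11.5 held 1580061 to 6431836 reads, those of E12.5 8671033 to 13098974, those of E13.5 4973179 to 23581725 and those of E14.5 979197 to 6130311. A count of 0 therefore allows up to 3 reads, which in RPM is 0.466 to 1.90 for the E11.5 libraries, 0.229 to 0.346 for those of E12.5, 0.127 to 0.603 for those of E13.5 and 0.489 to 3.06 for those of E14.5, counting error only. The library names carry 5 prefixes, taken here as sequencing runs. All 5 regions shared a run at E12.5 and another at E13.5, and values over those stages alone are given beside the region results. The E11.5 and E14.5 groups of each region lay in different runs, so stage and run cannot be told apart. At E11.5 the dorsal midbrain lay in a different run from all other regions. That run also held the E14.5 libraries of the ventral forebrain, ventral hindbrain and alar plate. At E14.5 the dorsal and ventral midbrain lay in a run of their own. Region and run are therefore partly confounded at E11.5 and E14.5. Genes that mark position in the brain were called higher in their own region for 6 of 6 in the ventral midbrain, 5 of 5 in the dorsal midbrain, 4 of 5 in the ventral forebrain and 4 of 5 tested in the ventral hindbrain. Over 22 such genes, 15 of the 60 libraries, most of them from E11.5, were closest to the mean of another region of their stage. The 15 included every E11.5 library of the ventral forebrain and of the ventral midbrain. The gap was above 0.2 in correlation for 7 of them, namely ventral forebrain E11.5 replicates 2 and 4, alar plate E11.5 replicates 2 and 4, ventral midbrain E11.5 replicate 4, ventral hindbrain E11.5 replicate 2 and ventral hindbrain E14.5 replicate 2. Region, stage and change results are given below with all libraries and, in a sentence each, without these 7. The smaller set leaves 1 library at E11.5 in the ventral forebrain and 1 in the alar plate, each assumed to vary like the other groups. The ventral forebrain library left is replicate 6, whose correlation was 0.662 with the ventral midbrain and 0.619 with its own region. Ventral midbrain E11.5 replicates 2 and 6, which also stay in, were closest to the ventral forebrain.

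Levels of the members covered a wide range. Nnat, for a small membrane protein of developing neurons, had the highest group means, 465 to 3723 RPKM over the 20 groups. Ndn followed at 94.4 to 830.5 RPKM, Mest at 49.4 to 364 RPKM, Cdkn1c at 48.45 to 311.5 RPKM, Peg10 at 14.3 to 247 RPKM and H19 at 19.45 to 240.2 RPKM. Intermediate group means, in RPKM, were found for Rian (38.2 to 213), Gnas (144 to 209), Grb10 (35.5 to 193.5), Igf2 (12.6 to 140.3), Copg2 (35.4 to 140.2), Snrpn (37.8 to 139.8), Meg3 (10.85 to 129.9), Peg3 (23.3 to 129.8), Peg13 (24.7 to 125), Blcap (26.5 to 94.01) and Commd1 (28.5 to 64.1). At the low end were Rtl1 (0.107 to 7.12 RPKM), Mirg (2.855 to 14.0), Zim1 (0.3445 to 14.48) and Calcr (0 to 16.3). The untested members stayed near the floor, with highest group means of 0.649 RPKM for Airn, 0.361 for Phlda2 and 0.122 for Slc22a18. The ventral forebrain held the highest group mean of 20 of the 37 tested members and the dorsal midbrain the lowest of 22. Members took 0.770% to 1.74% of a group's reads on average, with the highest share in the ventral forebrain at E14.5.

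**Figure D1:**
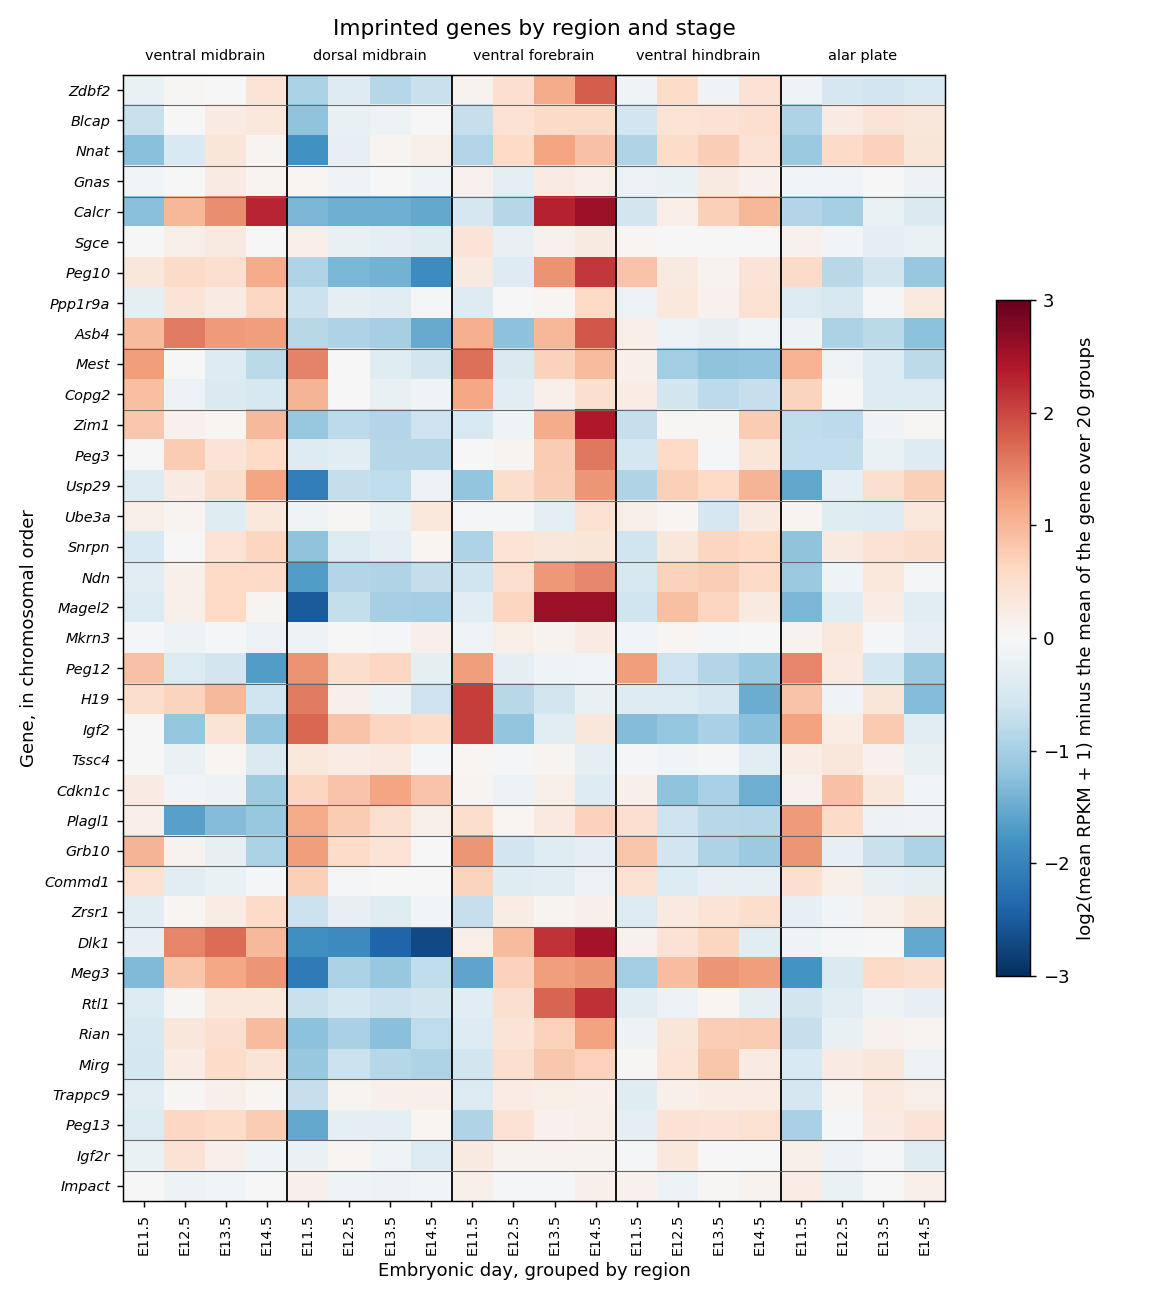
Group mean level of the 37 tested members (rows) in the 20 region and stage groups (columns), as log2(mean RPKM + 1) minus the gene's mean over groups. The highest mean lies in a ventral forebrain column for 20 genes and the lowest in a dorsal midbrain column for 22.

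In 1 limma fit on log2(RPKM + 1), the level of each region was set against the average of the 4 others over all stages. Calling a gene took a p below 0.05 after Benjamini-Hochberg adjustment over all 14692 features tested and a log2 fold change of at least 1 in size. Fold changes are given as log2 value ± standard error on that scale, which understates the changes of low genes. The region comparisons use the same 60 libraries and are not independent of each other. Where libraries of groups lay wholly apart and no share of all features is given, that share was not counted.

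In the dorsal midbrain, genes of the Dlk1, Peg10, Ndn and Peg3 clusters were lower than in the other regions, and Igf2 and Cdkn1c were higher. Of the 37 tested members, 13 were called, 11 lower and 2 higher, while 4.51% of all features were called (2.31% lower, 2.21% higher). The median log2 fold change was -0.42 over the members and 0.03 over all features. Without the size threshold 8 members were higher and 23 lower, next to 61.1% of all features in either direction. In such bulk samples, fewer cells of a type and less RNA per cell cannot be told apart. The libraries also differed in cell type markers. Of 15 genes of dividing neural progenitors, 7 were called higher and 1 lower in the dorsal midbrain, and their summed level had a median of 2009 RPKM there against 1303 to 1811 RPKM in the other regions. Of 15 genes of postmitotic neurons 0 were called, but their median log2 fold change was -0.53 and their summed level had a median of 2829 RPKM in the dorsal midbrain against 3439 to 3895 RPKM elsewhere, with none of the genes of either list at 0 in every library. The part of these markers in the results below was not tested. The same 13 genes were called without the 7 libraries far closer to another region, at -2.70 for Dlk1, -1.76 for Calcr, -1.71 for Peg10, -1.64 for Magel2, -1.58 for Meg3, -1.38 for Asb4, -1.298 for Rian, -1.301 for Ndn, -1.19 for Usp29, -1.09 for Mirg, -1.09 for Zim1, 1.31 for Igf2 and 1.15 for Cdkn1c.

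The Dlk1 cluster held the largest difference. Dlk1, a membrane protein related to the ligands of Notch, had 1.28, 2.78 and 9.34 RPKM (lowest, median and highest of 12 libraries) in the dorsal midbrain, against 4.55, 29.7 and 134 RPKM in the 48 libraries of the other regions. The dorsal midbrain median lay below every library of the other regions, although the ranges overlapped. The log2 fold change was -2.78 ± 0.17 (adjusted p = 5.36e-17), and -3.15 at E12.5 and E13.5 alone. The highest dorsal midbrain library was E12.5 replicate 3, which by position genes was closest to the alar plate. The noncoding RNAs of the cluster, which are expressed from the maternal copy, were lower as well. Meg3, a long RNA that starts the maternal transcript, had 9.65, 17.8 and 45.7 RPKM in the dorsal midbrain against 8.22, 91.0 and 157 RPKM elsewhere, a change of -1.59 ± 0.13 (adjusted p = 4.16e-13). Rian, a host of small nucleolar RNAs, had 33.0, 40.5 and 70.7 RPKM against 41.4, 115 and 221 RPKM, a change of -1.32 ± 0.09 (adjusted p = 4.35e-15). The ranges of Meg3 overlapped, with low levels at E11.5 in all regions, while all 3 dorsal midbrain libraries of Rian lay below all 12 others at 3 of the 4 stages, as did 0.946% of all features. Mirg had 2.004, 3.47 and 5.66 RPKM in the dorsal midbrain against 1.06, 9.13 and 16.4 RPKM elsewhere, a change of -1.105 ± 0.12 (adjusted p = 3.77e-10). At E12.5 and E13.5 alone the changes were -1.90 for Meg3, -1.52 for Rian and -1.23 for Mirg. Rtl1, a gene derived from a retrotransposon, had a change of -0.73 ± 0.08 on this scale (adjusted p = 5.07e-10), short of the size threshold, at levels of 0 to 0.439 RPKM in the dorsal midbrain against 0 to 8.76 RPKM elsewhere. With a pseudocount of 0.1 RPKM in place of 1, Rtl1 was called at -1.80.

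In the Peg10 cluster, 3 of 5 genes were lower in the dorsal midbrain. Calcr, the receptor for calcitonin, had 0, 0.0375 and 0.263 RPKM there, against 0, 1.99 and 19.1 RPKM in the other regions. It was listed at 0 in all 3 dorsal midbrain libraries at E14.5, where up to 3 reads would be 0.396, 0.270 and 0.277 RPKM, so its log2 fold change of -1.78 ± 0.11 (adjusted p = 2.02e-16) depends on the pseudocount. Peg10, derived from a retrotransposon and needed in the placenta, had 12.4, 21.0 and 31.1 RPKM in the dorsal midbrain, against 19.5, 72.9 and 261 RPKM elsewhere. Most libraries of the other regions lay above the highest dorsal midbrain library, and the change was -1.73 ± 0.12 (adjusted p = 2.47e-15). Asb4, part of ubiquitin ligases, had 1.17, 3.36 and 4.95 RPKM in the dorsal midbrain against 2.19, 7.86 and 33.8 RPKM elsewhere, a change of -1.34 ± 0.14 (adjusted p = 5.89e-11). Over E12.5 and E13.5 alone the changes were -1.87 for Calcr, -1.54 for Peg10 and -1.07 for Asb4. Their neighbours changed less, with -0.20 ± 0.06 for Sgce, a sarcoglycan of the muscle and neuron membrane (adjusted p = 0.00491), and -0.39 ± 0.08 for Ppp1r9a, the actin binding protein neurabin (adjusted p = 3.12e-05). These values are past the p threshold but not the size threshold.

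The neighbouring MAGE family genes Ndn and Magel2, which are expressed from the paternal copy, were both lower in the dorsal midbrain. Ndn, which restrains the cell cycle in neurons, had 75.9, 159 and 234 RPKM there, against 65.1, 393 and 883 RPKM in the other regions. All 3 dorsal midbrain libraries lay below the 12 others at 3 of the 4 stages, as 0.946% of all features did at 3 or 4 stages. The change of Ndn was -1.30 ± 0.10 (adjusted p = 4.01e-14). Magel2, a partner of a ubiquitin ligase in endosomal recycling, had 1.31, 4.79 and 12.3 RPKM against 0.664, 15.2 and 102 RPKM, a change of -1.64 ± 0.14 (adjusted p = 6.48e-13). Its ranges overlapped, and the lowest library of all was alar plate E11.5 replicate 4. In the same cluster, Peg12, a protein of the Frat family that binds the kinase GSK3, went the other way at 0.71 ± 0.13 (adjusted p = 6.63e-06), short of the size threshold, and Mkrn3, a RING finger protein, had a change of -0.01 ± 0.07. Usp29, a gene of the ubiquitin protease family, had 1.302, 5.61 and 12.48 RPKM in the dorsal midbrain against 1.36, 16.1 and 32.7 RPKM elsewhere (-1.17 ± 0.14, adjusted p = 1.12e-09). It shares 2582 exonic bases with Zim3 on the opposite strand, and Zim3 changed by -1.12 ± 0.16 in the dorsal midbrain. Without strand information their reads cannot be told apart there. Zim1, a zinc finger gene next to Peg3, had 0, 0.626 and 1.31 RPKM against 0.201, 2.08 and 16.7 RPKM (-1.03 ± 0.14, adjusted p = 2.29e-08). The call of Zim1 was lost at E12.5 and E13.5 alone (-0.84) and without dorsal midbrain E11.5 replicate 2 (-0.98), whereas Ndn (-1.43), Magel2 (-1.58) and Usp29 (-1.21) were called over those stages. Peg3, a zinc finger gene expressed from the paternal copy, had a change of -0.74 ± 0.15 (adjusted p = 2.87e-05).

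Cdkn1c and Igf2, members with opposite effects on growth, were higher in the dorsal midbrain. Cdkn1c, the cyclin-dependent kinase inhibitor p57, had 151, 246 and 358 RPKM in the dorsal midbrain against 30.8, 124 and 270.3 RPKM in the other regions. All dorsal midbrain libraries lay above all others at E11.5, E13.5 and E14.5, as 1.58% of all features did at 3 or 4 stages, and the change was 1.125 ± 0.12 (adjusted p = 2.93e-10). Igf2, the insulin-like growth factor, had 13.03, 62.0 and 136 RPKM against 9.27, 15.2 and 278 RPKM, with wide overlap. Its change was 1.36 ± 0.34 (adjusted p = 0.000629). At E12.5 and E13.5 alone Cdkn1c was at 1.15 and Igf2 at 1.34. Igf2 is abundant in mesenchyme and meninges, and 5 of 18 genes of those tissues were also called higher in the dorsal midbrain, among them the transcription factor gene Twist1 (1.66 ± 0.28). The summed level of the 18 genes was 35.8, 209 and 589.5 RPKM in the dorsal midbrain, against medians of 44.9 RPKM in the ventral midbrain, 129.5 in the ventral forebrain, 65.75 in the ventral hindbrain and 197 in the alar plate. None of the 18 was at 0 in every library. Of a choroid plexus list, 2 of 8 tested genes were called higher in the dorsal midbrain. These were the homeobox genes Otx2 (2.84 ± 0.28) and Msx1 (1.34 ± 0.30), which also pattern the early brain. In the ventral midbrain 2 were called higher too, Folr1 (1.91 ± 0.21) and Msx1 (1.02 ± 0.30), while Igf2 was not called there (-0.58 ± 0.34). The summed level of the 10 listed genes was 93.8, 193 and 425 RPKM in the dorsal midbrain. Elsewhere its medians were 65.6 RPKM in the ventral midbrain, 36.4 in the ventral forebrain, 5.87 in the ventral hindbrain and 88.6 in the alar plate. The part of both lists in the Igf2 result was not tested. Counting without strand could add reads of Gm44732, which shares 625 exonic bases with Cdkn1c on the opposite strand. Gm49394 shares 3596 of the 5723 exonic bases of Igf2 on the same strand, so strand could not separate their reads there.

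**Figure D2:**
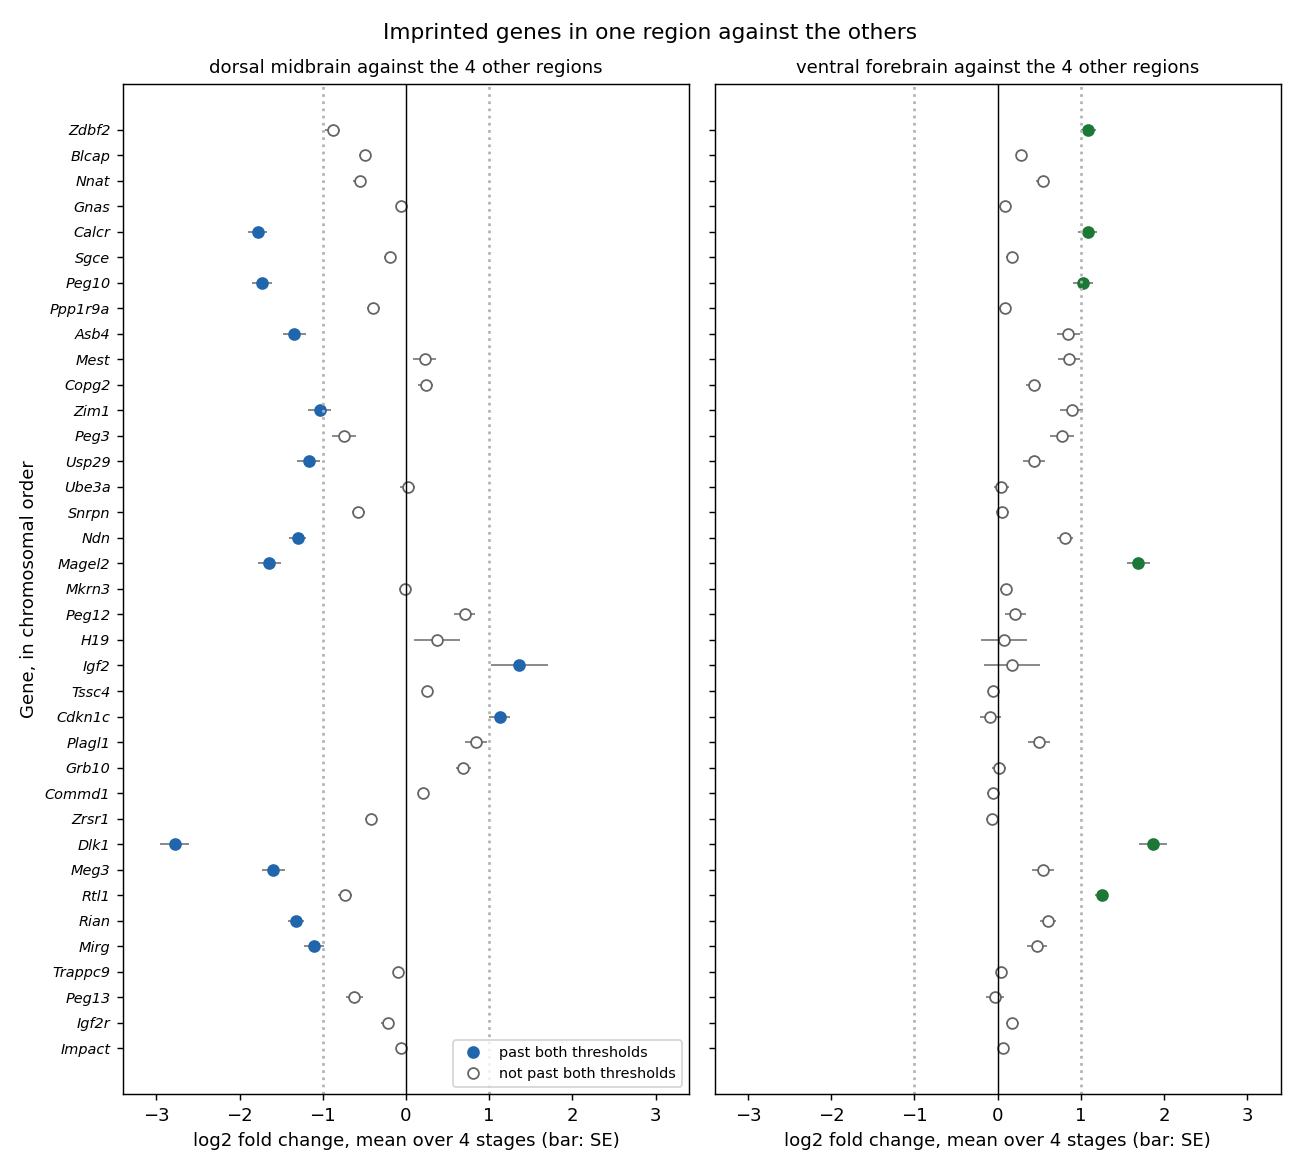
Log2 fold change ± SE of the 37 tested members in the dorsal midbrain and in the ventral forebrain, each against the other regions, with filled points for genes past both thresholds. Dlk1, Calcr, Peg10 and Magel2 are called lower in the dorsal midbrain and higher in the ventral forebrain.

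In the ventral forebrain, 6 of 37 members were higher and 0 lower, while 0.776% of all features were called (0.442% higher, 0.334% lower). The median log2 fold change was 0.28 over the members and 0.00 over all features. Without the size threshold 19 members were higher and 0 lower at an adjusted p below 0.05, against 8.93% of all features in either direction. The 6 genes were Dlk1, Rtl1, Magel2, Zdbf2, Calcr and Peg10, and their high values came mostly from E13.5 and E14.5.

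Dlk1 had 16.6, 57.6 and 134 RPKM in the ventral forebrain, against 1.28, 16.2 and 71.9 RPKM in the other regions, a change of 1.87 ± 0.17 (adjusted p = 4.59e-11). Its lowest ventral forebrain libraries were those of E11.5, and its libraries lay above all others at 2 of the 4 stages. Rtl1 had 0.348, 2.27 and 8.76 RPKM against 0, 0.442 and 1.51 RPKM, a change of 1.25 ± 0.08 (adjusted p = 3.09e-15). Its ventral forebrain libraries lay above all 12 others at E12.5, E13.5 and E14.5, a separation at 3 or more stages that 2 of 14692 features showed (0.0136%). Rtl1 passed the level filter only through ventral forebrain and ventral midbrain groups. Magel2 had 4.45, 37.9 and 102 RPKM in the ventral forebrain against 0.664, 11.2 and 25.9 RPKM elsewhere, a change of 1.69 ± 0.14 (adjusted p = 2.03e-12). Zdbf2, a zinc finger gene expressed from the paternal copy, had 7.25, 18.7 and 44.2 RPKM against 4.37, 9.36 and 18.3 RPKM, a change of 1.09 ± 0.09 (adjusted p = 3.98e-12). At E13.5 and E14.5 the ventral forebrain libraries of Magel2 and of Zdbf2 were the highest of all regions, a separation not counted over all features. At E12.5 and E13.5 alone the changes were 1.62 for Dlk1, 1.23 for Rtl1, 1.55 for Magel2 and 1.03 for Zdbf2. Without the 7 libraries far closer to another region they were 1.83 for Dlk1, 1.27 for Rtl1, 1.43 for Magel2 and 0.97 for Zdbf2, so that the call of Zdbf2 was lost there. Mest was called higher in the ventral forebrain in that set, at 1.03.

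Calcr and Peg10 were less even over the stages. Calcr had 0.586, 1.83 and 0.707 RPKM in the ventral forebrain at E11.5, 0.0801, 0.476 and 1.21 RPKM at E12.5, 16.4, 8.22 and 15.4 RPKM at E13.5 and 13.8, 15.97 and 19.1 RPKM at E14.5. All 6 libraries of the later stages lay above all 6 of the earlier ones, a separation not counted over all features. The change of Calcr over all stages was 1.09 ± 0.11 (adjusted p = 2.01e-09), and its call was lost at E12.5 and E13.5 alone (0.79). Peg10 had 37.2, 94.9 and 261 RPKM in the ventral forebrain, against 12.4, 64.1 and 134 RPKM in the other regions. Its change of 1.02 ± 0.12 (adjusted p = 3.13e-08) was close to the size threshold. The call of Peg10 was lost at E12.5 and E13.5 alone (0.77), without the 7 libraries (0.92), and without ventral forebrain E12.5 replicate 3 (0.99), E13.5 replicate 4 (0.93) or E11.5 replicate 4 (0.94), or alar plate E11.5 replicate 4 (0.98). Asb4 had 2.38, 2.195 and 3.66 RPKM in the ventral forebrain at E12.5, lower than the 16.8, 13.8 and 21.4 RPKM at E11.5, the 23.15, 9.86 and 16.2 RPKM at E13.5 and the 26.9, 33.8 and 32.9 RPKM at E14.5. Summed position genes of the ventral forebrain stood at 47.8, 1.65 and 1.71 RPKM at E11.5, 21.3, 24.4 and 39.8 RPKM at E12.5, 145.7, 68.0 and 137 RPKM at E13.5 and 123, 136 and 126 RPKM at E14.5 in those libraries. Their part in the stage pattern of Calcr, Peg10 and Asb4 was not tested.

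**Figure D3:**
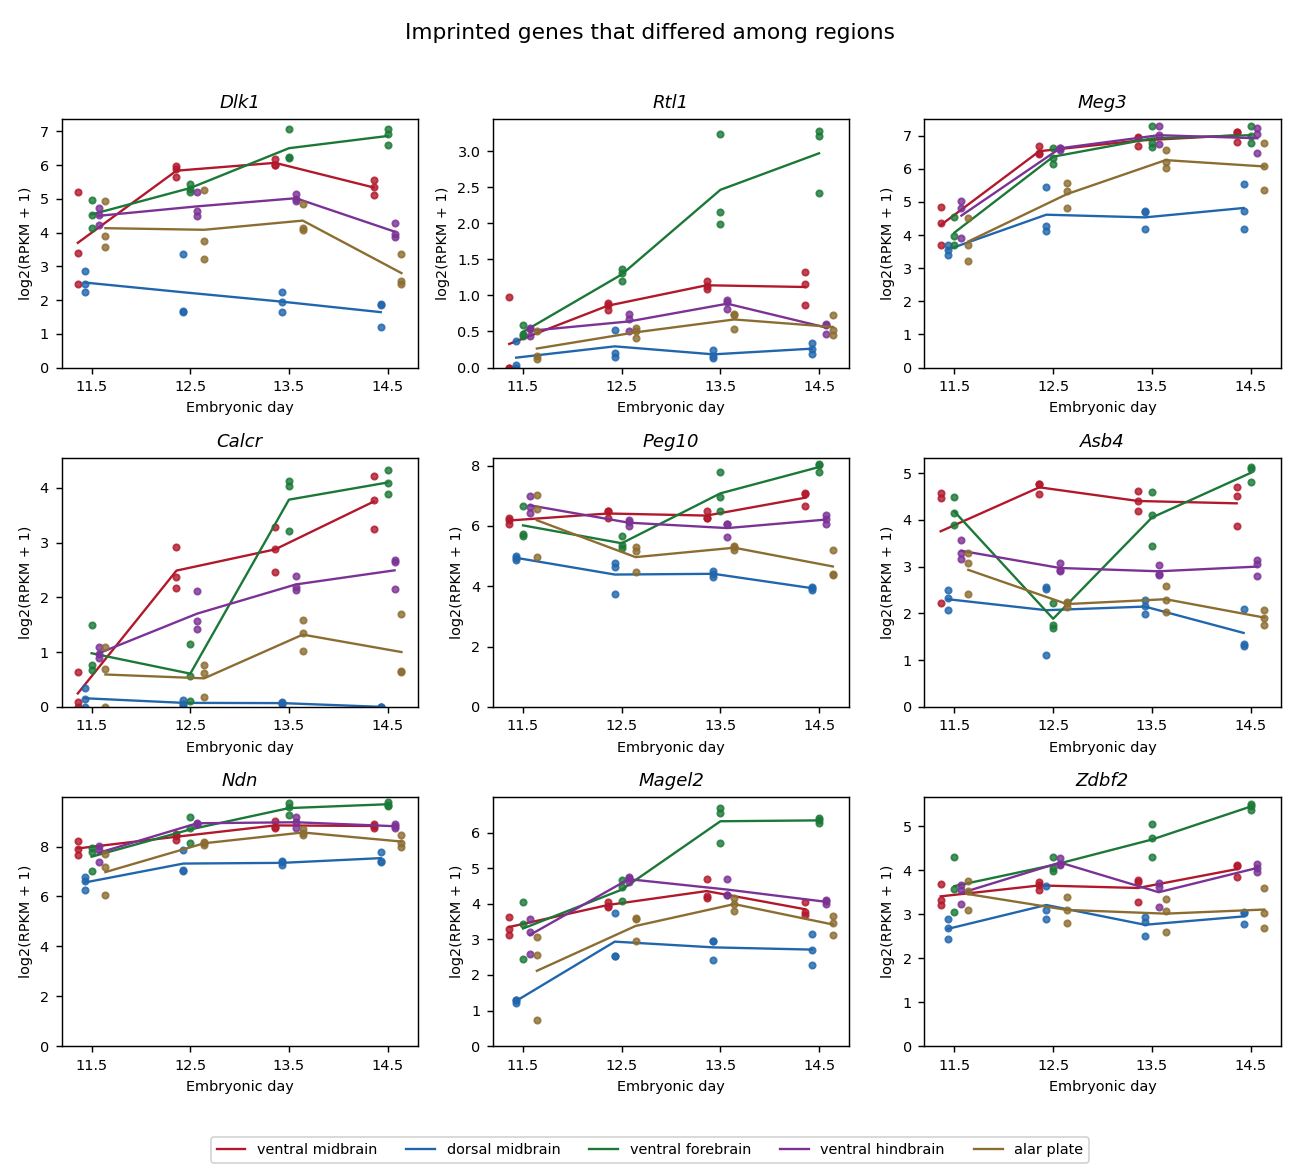
Level, as log2(RPKM + 1), of Dlk1, Rtl1, Meg3, Calcr, Peg10, Asb4, Ndn, Magel2 and Zdbf2 in every library (points) with group means (lines), by stage and region. Ventral forebrain levels of Rtl1, Magel2 and Zdbf2 separate from the other regions at E13.5 and E14.5, and dorsal midbrain levels of Dlk1, Calcr and Peg10 stay low at all stages.

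In the ventral midbrain, 3 of 37 members were higher (Asb4, Dlk1 and Calcr) and 1 lower (Plagl1), while 1.72% of all features were called (1.31% higher, 0.408% lower). The median log2 fold change was 0.09 over the members and -0.02 over all features, and 13 members were higher and 4 lower at any size (34.1% of all features in either direction). All 6 genes of a dopaminergic neuron list were higher there, with a median summed level of 369.9 RPKM against 4.57 to 52.5 RPKM in the other regions, and their part in the results below was not tested.

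Asb4 had 3.66, 22.02 and 26.3 RPKM in the ventral midbrain, against 1.17, 4.99 and 33.8 RPKM in the other regions, a change of 1.504 ± 0.14 (adjusted p = 1.11e-11). Of the 12 ventral midbrain libraries, 11 lay between 13.51 and 26.3 RPKM, and the lowest was E11.5 replicate 4. Dlk1 had 4.61, 47.2 and 71.9 RPKM against 1.28, 17.2 and 134 RPKM, a change of 1.155 ± 0.17 (adjusted p = 9.54e-07). At E11.5 Dlk1 had 4.61, 35.55 and 9.61 RPKM in the ventral midbrain, and the library with 35.55 RPKM is again replicate 4, which by position genes was far closer to the dorsal midbrain. Without it the change of Dlk1 was 0.97, below the size threshold. Calcr had 0, 5.43 and 17.7 RPKM in the ventral midbrain against 0, 0.897 and 19.1 RPKM elsewhere, a change of 1.05 ± 0.11 (adjusted p = 8.33e-10). Its call was lost by a small margin without ventral midbrain E12.5 replicate 2 (0.9992) or E14.5 replicate 4 (0.99). Plagl1, a zinc finger transcription factor expressed from the paternal copy, had 9.34, 11.97 and 78.3 RPKM in the ventral midbrain against 15.9, 40.4 and 123 RPKM elsewhere, a change of -1.32 ± 0.13 (adjusted p = 1.24e-10). At E12.5, E13.5 and E14.5 all 3 ventral midbrain libraries of Plagl1 lay below all 12 others, a separation at 3 or more stages that 0.0476% of all features showed. The value of 78.3 RPKM is E11.5 replicate 4, next to 10.6 and 18.99 RPKM in the other libraries of that group. At E12.5 and E13.5 alone the changes were 1.985 for Asb4, 1.67 for Dlk1, 1.39 for Calcr and -1.52 for Plagl1. Without the 7 libraries far closer to another region they were 1.70 for Asb4, 1.002 for Dlk1, 1.015 for Calcr and -1.47 for Plagl1.

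In the ventral hindbrain, 2 of 37 members were lower, Igf2 and Cdkn1c, and 0 higher, while 1.57% of all features were called (1.0% higher, 0.572% lower). The median log2 fold change was 0.08 over the members and -0.02 over all features, and 15 members were higher and 10 lower at any size (42.3% of all features in either direction). Cdkn1c had 30.8, 63.3 and 176 RPKM in the ventral hindbrain against 56.3, 151 and 358 RPKM in the other regions, a change of -1.10 ± 0.12 (adjusted p = 4.79e-09) and of -1.45 at E12.5 and E13.5 alone. The 3 E11.5 libraries, at 176, 167 and 110.5 RPKM, were the high ones of the ventral hindbrain. Igf2 had 9.46, 14.0 and 17.9 RPKM against 9.27, 24.0 and 278 RPKM, a change of -1.15 ± 0.34 (adjusted p = 0.00587). The ventral hindbrain libraries lay within the low end of the other regions, and at E12.5 and E13.5 alone the call was lost (-0.90, adjusted p = 0.0481). Of the 18 mesenchymal and meningeal genes, 6 were called lower in the ventral hindbrain and 0 higher, with summed levels of 30.3, 65.75 and 360 RPKM, and 3 of 8 choroid plexus genes were lower (Otx2, Folr1 and Msx1) and 0 higher, with summed levels of 3.58, 5.87 and 32.3 RPKM. The part of both lists in the Igf2 result was not tested. The changes without the 7 libraries far closer to another region were -1.25 for Cdkn1c and -1.21 for Igf2. Mest, a gene of the alpha/beta hydrolase fold expressed from the paternal copy, had a change of -0.99 ± 0.14 (adjusted p = 4.06e-07), just short of the size threshold, and was called at -1.065 without the 7 libraries. Its neighbour Copg2, a coat protein of Golgi vesicles, had 35.1, 39.7 and 76.6 RPKM in the ventral hindbrain against 40.6, 57.0 and 185 RPKM elsewhere. At 3 of 4 stages all its ventral hindbrain libraries were below the 12 others, as for 0.0408% of all features, with a change of -0.55 ± 0.09 (adjusted p = 4.87e-06). Mest and Copg2 share 912 exonic bases on opposite strands, and the strand of the libraries is not given, so their reads cannot be told apart there.

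In the alar plate, 0 of 37 members were called, while 0.619% of all features were (0.265% higher, 0.354% lower). Without the size threshold 1 member was higher and 12 lower at an adjusted p below 0.05, while 560 of all 14692 features were higher and 1133 lower. At an unadjusted p below 0.05 in limma, 4 members were higher and 15 lower, next to 25.4% of all features in either direction. The median log2 fold change was -0.15 over the members and -0.01 over all features. Asb4 was called lower with a pseudocount of 0.1 RPKM (-1.05), with voom on the recovered reads (-1.055), without the 7 libraries (-1.15) and without E11.5 (-1.12). Calcr was called lower without E11.5 as well (-1.07, adjusted p = 1.48e-07). At E12.5 and E13.5 alone 0 members were called. The same held without the filter, with a filter at 5 RPKM, with median-of-ratios scaling and with a replicate block.

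At E14.5 the levels of Meg3, Usp29, Calcr, Nnat and 7 other members were higher than at E11.5 on the average of the 5 regions, and those of Peg12, Grb10, H19 and Mest were lower. Of 37 members, 11 were called higher and 4 lower, while 14.2% of all features were called (8.15% higher, 6.05% lower). The median log2 fold change was 0.29 over the members and -0.06 over all features, and 19 members were higher and 10 lower at any size (76.1% of all features in either direction). Cell type markers moved with stage too. Of the 15 neuronal genes 8 were called higher and 1 lower, with summed levels of 2874, 3519 and 4453 RPKM at E14.5 against 429.8, 2447 and 3948 RPKM at E11.5. Of the 15 progenitor genes 2 were called higher and 9 lower, with 999.9, 1401 and 1753 RPKM at E14.5 against 2091, 2598 and 2818 RPKM at E11.5. Of 8 tested genes of red blood cells 2 were called higher and 5 lower, with the embryonic globin gene Hbb-bh1 at -8.13 ± 0.28, and their summed level was 509, 778 and 1582 RPKM at E14.5 against 2019, 2837 and 21880 RPKM at E11.5. Of the 18 mesenchymal and meningeal genes 4 were called lower and 0 higher. None of these genes was at 0 in every library. The part of these markers and of the sequencing run in the stage results was not tested.

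Among the genes that rose, Nnat had 1528, 2113 and 3392 RPKM (lowest, median and highest of 15 libraries) at E14.5, against 409.6, 794 and 1172 RPKM at E11.5, a change of 1.61 ± 0.09 (adjusted p = 6.37e-20). Blcap, whose introns contain Nnat on the opposite strand, had 55.0, 83.4 and 101 RPKM against 22.9, 36.9 and 45.6 RPKM, a change of 1.17 ± 0.07 (adjusted p = 1.06e-18). Snrpn, a splicing protein of neurons, had 83.5, 122 and 155 RPKM against 24.0, 44.5 and 72.4 RPKM (1.34 ± 0.09, adjusted p = 1.03e-17). For these 3 genes and for Trappc9, a protein of vesicle transport, all 15 E14.5 libraries lay above all 15 E11.5 libraries, as for 4.65% of all features. Trappc9 itself changed by 0.61 ± 0.05 (adjusted p = 2.06e-15), short of the size threshold. Peg13, a noncoding RNA within an intron of Trappc9, had 67.3, 93.9 and 129.8 RPKM at E14.5 against 12.46, 41.1 and 75.4 RPKM at E11.5 (1.26 ± 0.12, adjusted p = 1.50e-12).

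Meg3 had the largest rise, with 17.2, 109 and 156 RPKM at E14.5 against 8.22, 14.0 and 31.8 RPKM at E11.5 (2.30 ± 0.15, adjusted p = 1.24e-17). Its 3 E14.5 libraries of the dorsal midbrain (25.3, 45.7 and 17.2 RPKM) were among the lowest of that stage. Rian rose less, with 44.0, 162 and 221 RPKM against 36.1, 58.4 and 107 RPKM (1.07 ± 0.11, adjusted p = 3.25e-12). Usp29 had 6.52, 24.8 and 32.7 RPKM at E14.5 against 1.302, 3.24 and 11.1 RPKM at E11.5 (2.09 ± 0.16, adjusted p = 4.90e-16). Usp29 shares 2582 exonic bases with Zim3 on the opposite strand, and Zim3, from a list of other imprinted genes, changed by 2.11 ± 0.18. The remaining genes called higher were Calcr (1.68 ± 0.13, adjusted p = 1.48e-15), Magel2 (1.44 ± 0.16, 5.21e-11), Ndn (1.255 ± 0.11, 2.02e-13) and Zim1 (1.195 ± 0.16, 4.61e-09), whose ranges at the 2 stages overlapped.

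Among the genes that fell, Peg12 had 1.97, 4.96 and 12.3 RPKM at E14.5 against 14.2, 24.5 and 37.9 RPKM at E11.5, a change of -2.095 ± 0.14 (adjusted p = 5.27e-17). Grb10, an adaptor that dampens signalling from the insulin and IGF1 receptors, had 27.0, 44.7 and 100.1 RPKM against 113, 171 and 253 RPKM, a change of -1.80 ± 0.10 (adjusted p = 1.09e-19). For both, and for Commd1, a protein of copper metabolism that changed by -0.71 ± 0.07, all E14.5 libraries lay below all E11.5 libraries, as for 3.95% of all features. Mest had 44.7, 68.4 and 272 RPKM at E14.5 against 107, 305 and 499.8 RPKM at E11.5 (-1.49 ± 0.16, adjusted p = 1.20e-11). The 3 ventral forebrain libraries, at 167, 233 and 272 RPKM, were the highest of E14.5. H19, a noncoding RNA expressed from the maternal copy next to Igf2, had 7.31, 28.1 and 83.9 RPKM at E14.5 against 30.0, 63.1 and 418 RPKM at E11.5 (-1.66 ± 0.31, adjusted p = 6.49e-06). H19 and Igf2 were highest in the same library. Ventral forebrain E11.5 replicate 6 had 418 RPKM of H19 and 278 RPKM of Igf2, with a summed mesenchymal and meningeal level of 1590 RPKM. Alar plate E11.5 replicate 4 had 237 RPKM of H19 and 211 RPKM of Igf2, with a summed level of 811 RPKM. The summed level over all libraries was 20.6, 37.4 and 232.5 RPKM at E14.5 against 128, 339.7 and 1590 RPKM at E11.5, and its part in the fall of H19 was not tested. Igf2 itself changed by -0.71 ± 0.38 (adjusted p = 0.0908).

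With E12.5 in place of E11.5 as the early stage, 2 of the 15 genes were called, Calcr (1.19) and Zim1 (1.01), while 0.858% of all features were called. Over that interval Nnat changed by 0.18, Mest by -0.15, Meg3 by 0.49, Grb10 by -0.51 and Peg12 by -0.73. Without the 7 libraries far closer to another region, all 15 genes were called between E14.5 and E11.5. The rises were then 2.43 for Meg3, 2.02 for Usp29, 1.82 for Nnat, 1.725 for Calcr, 1.48 for Magel2, 1.45 for Snrpn, 1.28 for Blcap, 1.27 for Ndn, 1.22 for Peg13, 1.21 for Rian and 1.05 for Zim1. The falls were -2.01 for Peg12, -1.86 for Grb10, -1.75 for H19 and -1.56 for Mest, and Copg2 was called in addition at -1.03.

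**Figure D4:**
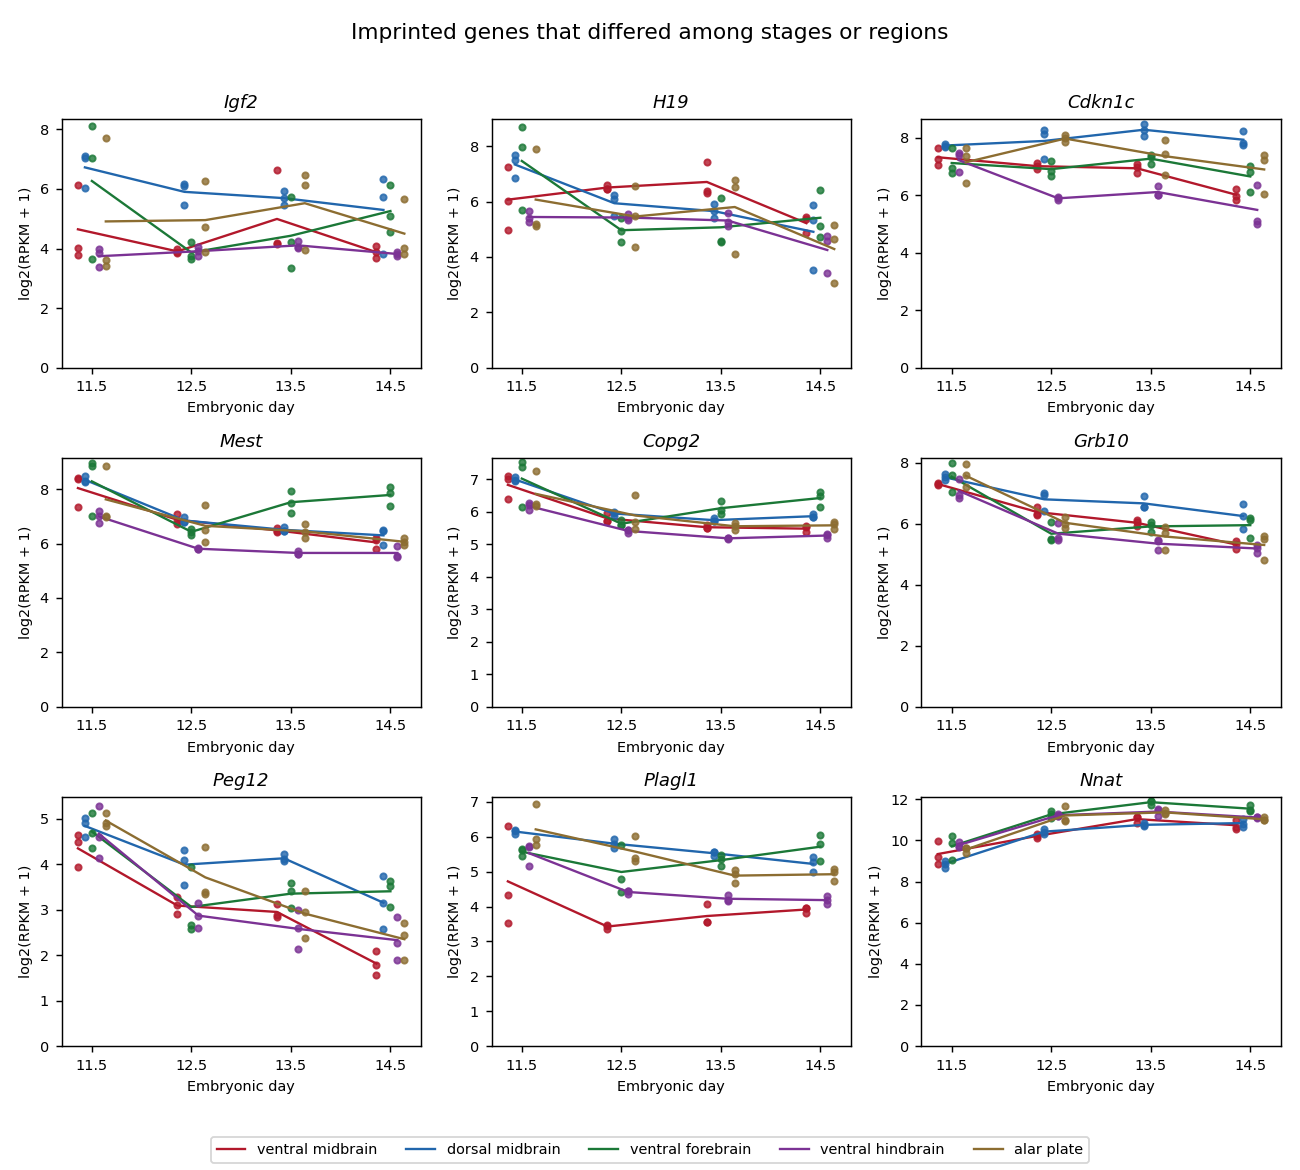
Level, as log2(RPKM + 1), of Igf2, H19, Cdkn1c, Mest, Copg2, Grb10, Peg12, Plagl1 and Nnat in every library (points) with group means (lines), by stage and region. The E11.5 means of Grb10, Peg12, Mest and Copg2 are the highest of each region and those of Nnat the lowest, while single E11.5 libraries stand out for Igf2 and H19.

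The size of the E14.5 minus E11.5 change differed between regions for 11 of 37 members by an F test with a spread of at least 1 between the largest and smallest change, while 10.8% of all features did. The median spread was 1.12 over the members and 0.59 over all features, and 12 members passed the F test at any spread (19% of all features). Except for Calcr and Cdkn1c, the most positive change of each of these genes was in the ventral forebrain. At E11.5, however, ventral forebrain position genes summed to 47.8, 1.65 and 1.71 RPKM in the ventral forebrain libraries. In the ventral midbrain libraries of that stage they summed to 29.3, 27.4 and 32.8 RPKM. The part of this E11.5 difference in the changes was not tested. Dlk1 had 94.8, 134 and 120.5 RPKM at E14.5 against 21.9, 29.95 and 16.6 RPKM at E11.5 in the ventral forebrain, but 9.20, 4.55 and 4.95 RPKM against 29.3, 10.8 and 14.0 RPKM in the alar plate. The groups of the 2 stages did not overlap in either region, and the changes were 2.325 ± 0.43 in the ventral forebrain and -1.33 ± 0.43 in the alar plate (F test over 5 regions, adjusted p = 2.75e-05). Peg10 had 219.9, 260.1 and 261.1 RPKM at E14.5 against 51.6, 101 and 49.4 RPKM at E11.5 in the ventral forebrain, and 35.4, 19.5 and 20.4 RPKM against 128.5, 30.5 and 93.3 RPKM in the alar plate (1.93 ± 0.30 and -1.53 ± 0.30, adjusted p = 4.46e-07). Its stages overlapped in the alar plate and not in the ventral forebrain. Rtl1 had 4.36, 8.23 and 8.76 RPKM at E14.5 against 0.508, 0.348 and 0.375 RPKM at E11.5 in the ventral forebrain, a change of 2.48 ± 0.21. In the other regions its change ran from 0.05 to 0.79 (adjusted p = 1.73e-07). Magel2 had 80.3, 84.3 and 76.0 RPKM at E14.5 against 15.5, 9.71 and 4.45 RPKM at E11.5 in the ventral forebrain (3.04 ± 0.35), and 0.50 to 1.44 in the other regions (adjusted p = 0.00261). Zdbf2 had 44.2, 42.8 and 40.5 RPKM at E14.5 against 18.6, 10.9 and 7.25 RPKM at E11.5 in the ventral forebrain (1.81 ± 0.23), while its change in the alar plate was -0.35 ± 0.23 (adjusted p = 0.000158).

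Calcr followed another order. It had 8.48, 12.8 and 17.7 RPKM at E14.5 against 0, 0.555 and 0.0696 RPKM at E11.5 in the ventral midbrain, a change of 3.51 ± 0.29, next to 3.12 ± 0.29 in the ventral forebrain, 1.52 ± 0.29 in the ventral hindbrain, 0.41 ± 0.29 in the alar plate and -0.16 ± 0.29 in the dorsal midbrain (adjusted p = 4.17e-09). In the 3 ventral regions every E14.5 library of Calcr lay above every E11.5 library, a separation not counted over all features. Cdkn1c had 80.8, 30.8 and 33.7 RPKM at E14.5 against 176, 167 and 110.5 RPKM at E11.5 in the ventral hindbrain (-1.73 ± 0.31), but 222.5, 215 and 300.2 RPKM against 222, 203 and 208.5 RPKM in the dorsal midbrain (0.20 ± 0.31, adjusted p = 0.00594). Libraries of the ventral forebrain, ventral hindbrain and alar plate shared a run at E11.5 and another at E14.5. In an F test over those 3 regions alone, 8 of the 11 genes were called, against 2.97% of all features, and Cdkn1c (adjusted p = 0.0602), Rian (0.224) and Peg3 (0.281) were not. With voom on the recovered reads, Calcr (adjusted p = 0.0698), Rtl1 (0.145), Rian, Zim1, Asb4 and Peg3 did not pass the F test.

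Without the 7 libraries far closer to another region 18 members were called in place of 11, and 23.1% of all features. Asb4 and Peg3 were lost, while Plagl1, Meg3, Mirg, Peg13, Nnat, Mest, Ndn and Mkrn3 were gained. Airn was gained as well, but with all libraries its highest group mean was 0.649 RPKM, below the level filter. It could pass the filter here only through an E11.5 group left with 1 library. That group also enters its change, so the call of Airn carries no weight. In that set the ventral forebrain at E11.5 was replicate 6 alone, with a summed mesenchymal and meningeal level of 1590 RPKM. The ventral forebrain changes below rest on that library at E11.5. Its summed level of ventral forebrain position genes was 1.71 RPKM. The replicates left out, 2 and 4, had 47.8 and 1.65 RPKM, so this set is not a cleaner ventral forebrain at E11.5. Dlk1 changed by 2.72 ± 0.52 in the ventral forebrain and -1.10 ± 0.52 in the alar plate. Peg10 changed by 2.29 ± 0.32 and -1.91 ± 0.32 in the same regions. In the ventral forebrain the changes were 2.51 ± 0.27 for Rtl1, 3.895 ± 0.35 for Magel2 and 2.40 ± 0.29 for Zdbf2, which was at 0.02 ± 0.29 in the alar plate. Calcr changed by 3.70 ± 0.30 in the ventral midbrain and 3.33 ± 0.39 in the ventral forebrain, and Cdkn1c by -2.04 ± 0.32 in the ventral hindbrain and 0.20 ± 0.26 in the dorsal midbrain.

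**Figure D5:**
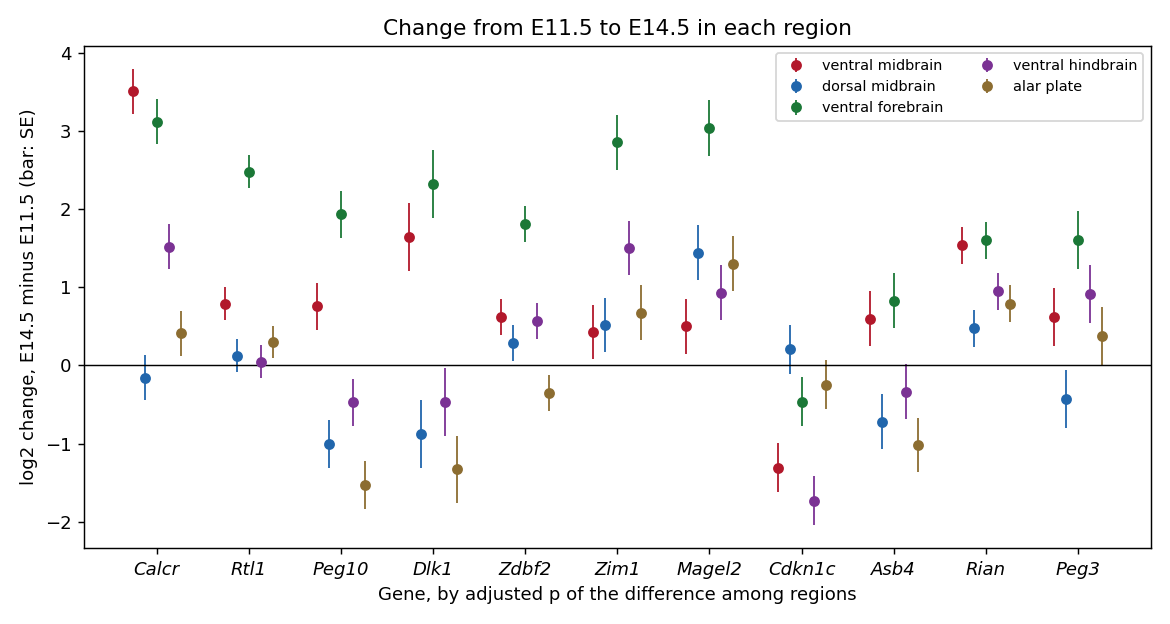
E14.5 minus E11.5 change (log2 RPKM + 1) ± SE in each region for the 11 members whose change differed between regions. Rtl1, Magel2, Zdbf2 and Zim1 change most in the ventral forebrain, and Calcr in the ventral midbrain and ventral forebrain.

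Of the 37 tested members 25 were called in at least 1 comparison, 16 of them in a region comparison, and 12 in none. Of all 14692 features, 24.0% were called in at least 1 comparison and 6.02% in a region comparison. These 12 were Sgce, Ppp1r9a, Copg2, Ube3a, Mkrn3, Tssc4, Gnas, Commd1, Zrsr1, Trappc9, Igf2r and Impact. Group means ran from 11.1 to 19.3 RPKM for Sgce, from 9.86 to 13.6 for Impact, a regulator of translation, 6.19 to 9.53 for Mkrn3, 9.18 to 17.25 for Igf2r, the receptor that clears IGF2, and 15.7 to 31.6 for Ube3a, a ubiquitin ligase. Tssc4 ranged from 17.0 to 29.8 RPKM, Ppp1r9a from 8.98 to 22.9, Zrsr1 from 2.12 to 6.47 and Trappc9 from 4.42 to 9.75. Gnas, the stimulatory G protein subunit and the most abundant of the 12, had a largest region difference of -0.10 ± 0.04 in the alar plate. Several members overlap other genes, with 412 exonic bases shared by Commd1 and Zrsr1, 988 by Gnas and Nespas and 1803 by Ube3a and Snhg14, all on opposite strands, so their counts are uncertain there.

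Members of a cluster tended to have similar profiles over the 20 group means, given as a description with no test since the groups share libraries, depth and run. Spearman's rho had a median of 0.722 over 40 pairs of the same cluster and 0.162 over all 666 pairs. It was 0.949 for Ndn and Magel2, 0.920 for Meg3 and Rian, 0.895 for Dlk1 and Rtl1 and 0.871 for Peg10 and Asb4. The 0.950 of Mest and Copg2 and the 0.925 of Nnat and Blcap are pairs that overlap in the genome. Within 1 cluster the order could also be opposite, with -0.690 for Ndn and Peg12, -0.587 for Magel2 and Peg12 and -0.734 for Commd1 and Zrsr1. Other pairs had little in common, with -0.003 for Ube3a and Snrpn, 0.056 for Sgce and Ppp1r9a and 0.184 for Ndn and Mkrn3. Neighbouring genes outside the list were not compared in this way.

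A further list of 50 imprinted or neighbouring genes had 39 that were tested. Of these, 2 were called higher in the ventral midbrain, Ddc, the enzyme that makes dopamine and also on the dopaminergic list (4.18 ± 0.22, adjusted p = 1.179e-19), and Kcnk9, a potassium channel (2.94 ± 0.19, adjusted p = 2.26e-16). In the dorsal midbrain 5 were lower and 0 higher, among them Ddc (-2.32 ± 0.22), Kcnk9 (-1.96 ± 0.19), Begain, next to Dlk1 (-1.17 ± 0.09), and Zim3 (-1.12 ± 0.16). In the ventral forebrain 3 were higher and 0 lower, Cpa4 (1.14 ± 0.12), Dio3, the deiodinase at the far end of the Dlk1 cluster (1.17 ± 0.13), and Dlx5, a homeobox gene of forebrain interneurons (1.79 ± 0.21). Slc22a3 was higher in the ventral hindbrain (1.11 ± 0.13) and Ddc lower in the alar plate (-1.89 ± 0.22). At E14.5 against E11.5, 7 were higher and 1 lower, among them Nap1l5 (2.03 ± 0.17) and Inpp5f (1.49 ± 0.09), next to the 14.2% of all features. The change between those stages differed among regions for 14 of the 39, next to 10.8% of all features, among them Dlx5 with a spread of 3.92 and Slc22a3 with 2.74.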

How the data were processed

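Total RNA of dissected embryonic mouse brain regions was made into TruSeq libraries, per the labels' protocols, and mapped with Bowtie (version not given in the sources used here) to mm10, per the submitters' processing notes. The authors deposited 1 table of RPKM values for 60 libraries, with no strand information. Dividing by the value of 1 read gave whole reads for 100% of values within 0.05 of a read, and these gave depths. Features with a group mean of at least 1 RPKM (14692 of 24378) were fitted with limma 3.58.1 in R 4.3.3 on log2(RPKM + 1), 1 mean per group, with Benjamini-Hochberg adjustment over all of them. Region comparisons weigh the 4 stages equally, and the stage comparison the 5 regions. Calls needed an adjusted p below 0.05 and a log2 fold change, or spread between regions, of at least 1. The genes named are the members called, their cluster neighbours and those with non-overlapping libraries. The members, marker lists and tests were chosen with earlier results of these data known. Replicate numbers were taken to pair libraries only if every same-numbered pair of a stage deviated with a correlation above 0.1, which was not met, so they were not used in the fit. No pair of replicates agreed within counting noise. The alternatives were a pseudocount of 0.1, no filter or 5 RPKM, voom on recovered reads, median-of-ratios scaling, a replicate block, leaving out each library, and other sets of stages or libraries. The fit was tested on simulated data for the calls of the dorsal midbrain comparison alone. Sequences came from RefSeq (GRCm38.p6).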

Additional observations from a re-analysis of the deposited data

Results flagged for a closer look

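For 11 genes the E14.5 minus E11.5 change differed between regions by an F test over the 5 regions, with the spread between the largest and smallest change on the log2(RPKM + 1) scale given first. The spread of Calcr was 3.66, that of Dlk1 3.655, that of Peg10 3.465 and that of Magel2 2.54. The spread of Rtl1 was 2.43, that of Zim1 2.425 and that of Zdbf2 2.16. Peg3 had a spread of 2.04, Cdkn1c of 1.94, Asb4 of 1.85 and Rian of 1.13.

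Asb4 and Peg10 had changes of opposite sign in the ventral forebrain and the alar plate. Asb4 changed by 0.83 ± 0.35 in the ventral forebrain and -1.02 ± 0.35 in the alar plate. Peg10 changed by 1.93 ± 0.30 and -1.53 ± 0.30. Peg3, at 122, 143 and 125 RPKM at E14.5 against 35.3, 41.1 and 50.2 RPKM at E11.5 in the ventral forebrain, changed by 1.61 ± 0.37 there and by -0.43 ± 0.37 in the dorsal midbrain. Its F test had an adjusted p of 0.0404, and of 0.0502 to 0.0885 without any 1 of 11 libraries of the ventral forebrain, ventral hindbrain or dorsal midbrain. Zim1 had 12.7, 16.7 and 14.0 RPKM at E14.5 against 0.861, 1.03 and 1.56 RPKM at E11.5 in the ventral forebrain, a change of 2.85 ± 0.35, next to 0.43 ± 0.35 in the ventral midbrain. The change of Rian was positive in all regions, largest in the ventral forebrain (1.60 ± 0.24) and smallest in the dorsal midbrain (0.47 ± 0.24). Its adjusted p was 0.0351, and 0.0519 to 0.0816 without any 1 of 9 libraries of the ventral midbrain, ventral forebrain or dorsal midbrain.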

How the results depend on the processing

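No call of a gene in a region or stage comparison changed direction under any alternative. For changes differing among regions the value followed is a spread, which is never negative, so a reversal could not be seen. Without the size threshold the members called numbered 17 in the ventral midbrain, 31 in the dorsal midbrain, 19 in the ventral forebrain, 25 in the ventral hindbrain, 13 in the alar plate and 29 between stages. In the ventral hindbrain 1 was called at E12.5 and E13.5 alone and 1 without E11.5. In the alar plate 1 was called with a pseudocount of 0.1, 1 with voom, 1 without the 7 libraries far closer to another region and 2 without E11.5. Between E14.5 and E12.5 the number was 2. The changes that differed among regions numbered 5 with voom and 18 without the 7 libraries. Leaving out each library gave 3 to 4 in the ventral midbrain, 12 to 13 in the dorsal midbrain, 5 to 6 in the ventral forebrain, 2 to 3 in the ventral hindbrain, 0 to 1 in the alar plate, 15 to 16 between stages and 9 to 16 for changes differing among regions. The replicate block gave 4, 13, 6, 2, 0, 15 and 10 in the same order, losing Peg3 (adjusted p = 0.0591). Of 120 pairs with the same number and stage, 61 had a correlation of deviations above 0.1, the pairs' mean running from -0.04 to -0.01 for the numbers of E11.5 and from 0.06 to 0.18 for those of the later stages. Closest to their own number were 42 of 60 libraries, more than an even split among 3 numbers would give, which is a hint from the data and not from the design. Of 51 calls, 2 were lost with a pseudocount of 0.1, 2 without the filter, 6 with voom and 4 without the 7 libraries, while median-of-ratios scaling and a filter at 5 RPKM lost 0. Without the 7 libraries 9 changes differing among regions were gained and 2 lost. With E12.5 as the early stage 16 of 26 were lost, and the cause was not tested.

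Over all genes, a pseudocount of 0.1 called 626 in the ventral midbrain, 1480 in the dorsal midbrain, 269 in the ventral forebrain, 675 in the ventral hindbrain, 244 in the alar plate and 3339 between stages, and voom called 605, 1602, 254, 732, 264 and 3153. Without the size threshold the numbers were 5016, 8975, 1312, 6211, 1693 and 11187, and 2791 for changes differing among regions. E12.5 and E13.5 alone gave 397 in the ventral midbrain, 388 in the ventral hindbrain and 150 in the alar plate, where there were 146 without the 7 libraries and 156 without E11.5. With E12.5 as the early stage 126 differed between stages and 243 in their change among regions. The count of changes differing among regions was 1053 with a filter at 5 RPKM, 470 with voom, 3445 without the 7 libraries and 437 over the 3 regions that shared runs. Leaving out all 15 libraries closest to another region emptied 2 groups and could not be fitted. The sets without 7 libraries and over 3 regions were chosen after seeing the data. The low depth of some E11.5 and E14.5 libraries limits Calcr, Rtl1 and Zim1.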
